A study of Saccharomyces cerevisiae with 9 samples.

Results

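The genes described here encode the subunits of the 3 nuclear RNA polymerases of budding yeast. They were taken from a fixed list of 31 subunit names and matched on the gene or systematic name of the array probes, and all 31 were found among the 6256 genes on the arrays. The list holds 7 genes for subunits of RNA polymerase I only, 2 for subunits shared by polymerases I and III, 10 for polymerase III only, 7 for polymerase II only and 5 for subunits common to all 3 enzymes.

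Messenger RNA was compared on 9 Agilent arrays, each hybridised with 1 mutant and 1 reference strain in opposite colours, so every value is a ratio of mutant over reference within an array. The K123R strain (CY1272) makes histone H2B from HTB1 in the K123R form, with arginine in place of lysine, and its second H2B gene, HTB2, is deleted. The ubp8 strain (BY10809) lacks UBP8. The double mutant (CY1383) carries the HTB1 substitution, the HTB2 deletion and the UBP8 deletion. Each of these was compared with the wild type BY4742 on 2 arrays of opposite dye, with the mutant in Cy5 on array 1 and in Cy3 on array 2. The K123R strain was also compared on 3 arrays with a strain that lacks HTB2 alone (BY13026). In that comparison both strains lack HTB2, whereas the K123R strain and the double mutant differ from wild type in HTB2 as well as in the substitution. The design text calls the arrays biological replicates, and growth conditions and the number of clones per strain are not given in the sources used here.

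RNA polymerase I transcribes the large ribosomal RNA precursor, RNA polymerase III makes transfer RNAs and the small 5S ribosomal RNA, and RNA polymerase II makes messenger RNAs. In each enzyme, the largest and second-largest subunits form the catalytic cleft, and smaller subunits form an assembly platform and a stalk that touches the emerging transcript. In the grouping used here, each enzyme also has a subunit related to the polymerase II factor TFIIS. Subunits related to the polymerase II factor TFIIF are in polymerases I and III, and those related to TFIIE in polymerase III. Ubiquitin is attached to this lysine of histone H2B by Rad6 and Bre1 during polymerase II transcription, and Ubp8, in the SAGA complex, removes it.

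The deleted genes were checked first, as log2 ratios per array. HTB2 stood at -3.68 and -3.88 in the K123R strain against wild type, at -3.16 and -3.64 in the double mutant, and at 0.52 and 0.33 in the ubp8 strain. It stood at -0.97, -0.06 and -0.71 on the 3 arrays where both strains lack it. UBP8 stood at -2.32 and -2.40 in the double mutant and at -2.54 and -2.08 in the ubp8 strain, and between -0.33 and -0.12 on the 5 arrays of the K123R strain. HIS3, an auxotrophic marker, was high wherever the K123R strain or the double mutant was hybridised, at 2.39 to 3.87. LEU2, another such marker, was high in the K123R strain against wild type, at 4.12 and 3.27, but stood at -0.54, 0.14 and -0.56 against the htb2 deletion strain. The source names give the same K123R strain in both comparisons. The title of its array 1 against wild type names an HTB1 deletion instead of HTB2, and the source name was followed. What sets LEU2 apart was not tested. Values against the 2 references are therefore given separately. BY4742 is of mating type alpha, and all 4 alpha-specific genes on the list were well above background on all 9 arrays. The a-specific genes were so as well, apart from MFA2 on 7 arrays, so detection does not tell the mating types apart. Of the alpha-specific genes, STE3 and SAG1 fell in the K123R strain and in the double mutant against wild type, and all 4 fell against the htb2 deletion strain. By limma 0 of 7 a-specific genes were called in any of the 4 comparisons, and at an unadjusted p under 0.05 there were 2 higher in the ubp8 strain and 1 in the double mutant. The part of mating type in the values below was not tested.

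The subunit genes were well measured against wild type and less completely against the htb2 deletion strain. Each array carried 53 spots for the 31 genes, none saturated and all well above background in both colours. Spots that the scanner software marked as outliers were left out. Against wild type these were 1 of 106 spots in the K123R strain, 3 of 106 in the ubp8 strain and 7 of 106 in the double mutant, which left RPC19 and RPB7 with 1 array each in the double mutant. Against the htb2 deletion strain they were 52 of 159 spots. There, 21 genes kept a value on all 3 arrays, 3 genes on 2 arrays and 6 on 1, and RPA135 had none and was not tested. The spread of log2 ratios over all genes was 0.21 to 0.31 (SD) on the arrays against wild type and 0.39, 0.35 and 0.51 on arrays 1, 2 and 3 against the htb2 deletion strain, so array 3 stood apart.

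In the K123R strain against wild type, 10 of the 31 subunit genes rose and 0 fell, by limma with Benjamini-Hochberg adjustment over all genes tested at a threshold of 0.05. Over all 6250 genes tested, 10.9% rose and 10.1% fell. The 10 genes were RPA135 and RPA12 of polymerase I, RPC40 and RPC19 of polymerases I and III, RET1, RPC82 and RPC53 of polymerase III, RPO21 and RPB2 of polymerase II, and the common subunit RPB8. At an unadjusted p under 0.05, 15 of the 31 genes were higher and 1 was lower. Without either K123R array 0 of the 31 were called, and without either ubp8 array 5 were. Leaving out an array cut the calls over all genes as well, to 827 without either ubp8 array. The median log2 ratio was 0.39 for the 7 polymerase I genes, 0.37 for the 2 genes of polymerases I and III, 0.28 for the 10 polymerase III genes, 0.18 for the 5 common genes and -0.06 for the 7 polymerase II genes, and that of all genes was -0.003. Of the 31 genes, 22 were higher and 6 were lower on both arrays, where 34.3% and 34.7% of all genes were.

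The second-largest subunits of all 3 enzymes rose. RPA135, which forms one side of the polymerase I cleft, had log2 ratios of 0.51 and 0.47 on the 2 arrays, a fitted 1.40-fold increase (log2 0.49 ± 0.05 SE, adjusted p = 0.00524 by limma). RET1, its counterpart in polymerase III, had 0.38 and 0.63 (log2 0.51 ± 0.13, limma adjusted p = 0.045). The RET1 call was lost with the ratios deposited for the series, and when any 1 of the 6 arrays against wild type was left out. RPB2 of polymerase II had 0.29 and 0.41 (log2 0.35 ± 0.06, limma adjusted p = 0.0144). All 6 array values were thus above 0, and those of RPA135 lay closest together. Among the largest subunits, which carry most of the active site, RPO21 of polymerase II rose, with 0.26 and 0.33 on the arrays (log2 0.30 ± 0.05, limma adjusted p = 0.0194). RPO31 of polymerase III had 0.26 and 0.54 (log2 0.40 ± 0.11, limma adjusted p = 0.0573) and RPA190 of polymerase I had 0.12 and 0.34 (log2 0.23 ± 0.10, limma adjusted p = 0.171). Both were higher on each array but did not pass the test, and their 2 arrays differed more than those of RPO21.

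The assembly platform divided by enzyme. RPC40, which polymerases I and III share, had 0.40 and 0.45 (log2 0.42 ± 0.07, limma adjusted p = 0.0142), and its partner RPC19 had 0.36 and 0.27 (log2 0.32 ± 0.06, limma adjusted p = 0.0268). The polymerase II counterparts RPB3, with 0.01 and -0.13, and RPB11, with -0.06 on both arrays, stayed near 0 and did not pass the test (fitted log2 -0.06 for each). The difference between the platforms of the enzymes was not tested.

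Of the parts related to transcription factors, 3 rose. All of these parts other than RPB9 belong to polymerases I and III, so the enzyme of those that rose says little. RPA12, the polymerase I subunit related to TFIIS and involved in cleaving the transcript, had 0.50 and 0.41 (log2 0.46 ± 0.05, limma adjusted p = 0.0062). RPC82, a polymerase III subunit related to TFIIE that takes part in initiation, had 0.37 and 0.51 (log2 0.44 ± 0.08, limma adjusted p = 0.0165). RPC53, part of the TFIIF-like pair of polymerase III, had 0.33 and 0.24 (log2 0.29 ± 0.06, limma adjusted p = 0.0243). In these 3 genes both arrays gave clearly positive values. The other TFIIF-like genes, RPA49, RPA34 and RPC37, were at fitted log2 ratios of 0.26 to 0.43 and did not pass, with array values between 0.12 and 0.65. RPA34 had the highest single value of all subunit genes, 0.65 on array 1, but 0.12 on array 2. RPC34 and RPC31, which work with RPC82, had 0.01 and 0.03, and 0.33 and -0.07. The TFIIS-like subunits of the other enzymes, RPC11 and RPB9, had -0.03 and -0.10, and -0.09 and -0.06.

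By limma 0 of the 6 stalk genes passed the test, with 2 higher and 1 lower at an unadjusted p under 0.05, and their fitted log2 ratios ran from -0.29 to 0.29. RPC25, a polymerase III stalk subunit, had 0.25 and 0.32 (log2 0.29 ± 0.07, limma adjusted p = 0.0508), and the polymerase I stalk genes RPA43 and RPA14 had 0.26 and 0.16, and 0.33 and -0.06. RPC17, the partner of RPC25, had -0.25 and -0.15. RPB4, a polymerase II stalk subunit, was the lowest of all 31 genes, with -0.24 and -0.35 (log2 -0.29 ± 0.09, limma adjusted p = 0.0764), and its partner RPB7 had -0.08 and -0.29. The stalk genes of polymerase II and RPC17 were thus lower on both arrays, and the other stalk genes had positive fitted ratios. Among the subunits common to all 3 enzymes, RPB8 rose, with 0.27 and 0.22 (log2 0.24 ± 0.05, limma adjusted p = 0.0242). The other 4 were positive on both arrays but did not pass, from RPB5 with 0.11 and 0.02 to RPC10 with 0.36 and 0.18 (log2 0.27 ± 0.07, limma adjusted p = 0.0504).

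**Figure D1:**
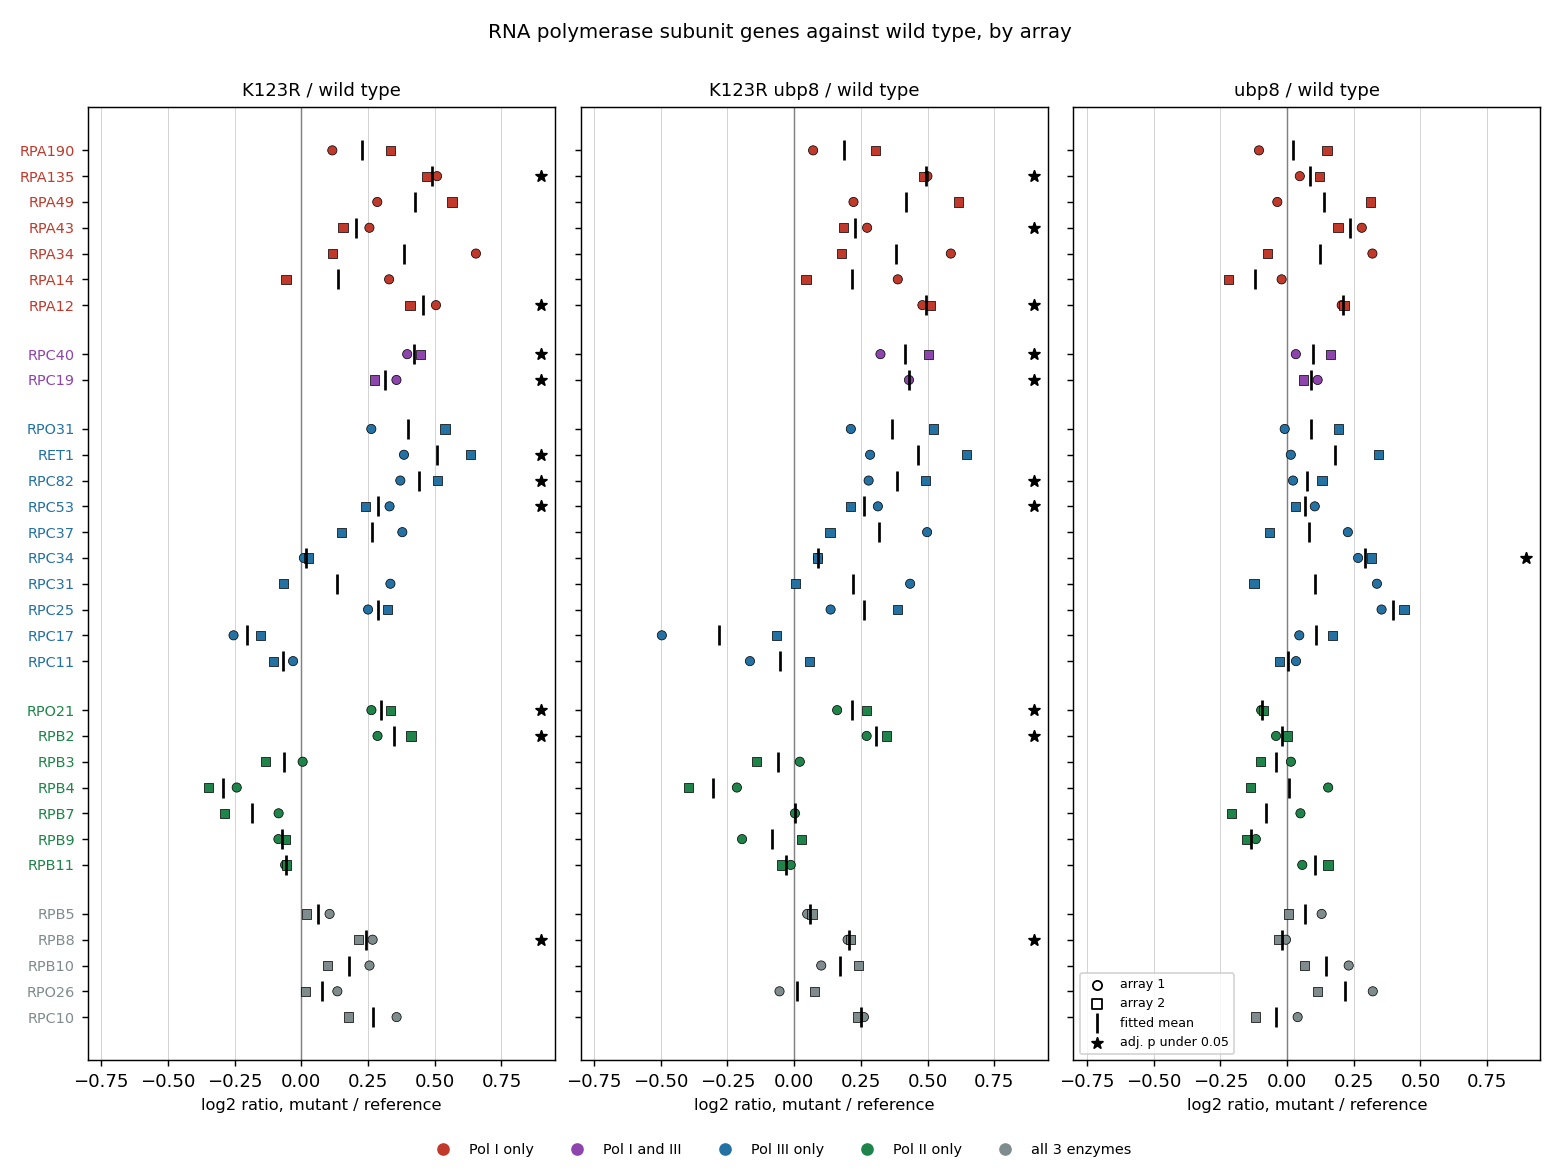
Log2 ratio of mutant over wild type (horizontal axis) for each of the 31 subunit genes (rows, coloured by enzyme) in the K123R strain, the double mutant and the ubp8 strain. Circles are array 1, squares array 2, vertical bars the fitted mean and stars genes with a limma adjusted p under 0.05. The first 2 panels have 10 stars each and the third has 1, and the points of polymerase I genes lie mostly to the right of 0 while those of polymerase II other than RPO21 and RPB2 lie near or left of it.

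The array number marks the dye orientation, and arrays of the same number deviated together from the mutant means. With the array number as a block, which gives each gene its own dye term, 24 of the 31 subunit genes were called in the K123R strain, 21 higher and 3 lower, where 33.4% and 32.8% of all genes tested were. They included the 10 genes above and all 7 polymerase I genes, and those lower were RPC17, RPB4 and RPB7. In the double mutant 24 were called, 22 higher and 2 lower (32.1% and 33.3% of all genes), and in the ubp8 strain 15, 13 higher and 2 lower (24.9% and 24.6%). With the slide as a block instead, each mutant was fitted at the slide of K123R array 1 and double mutant array 1, both with the mutant in Cy5. A dye effect does not cancel there as it does in the mean of 2 arrays, and the ubp8 strain was not on that slide. This gave 18 subunit genes called in the K123R strain, 16 higher and 2 lower, where 13.3% and 11.7% of all genes tested were. In the double mutant the slide block gave 13 higher and 1 lower, where 17.3% and 16.4% of all genes were. RPO21 and RPB8 were not called at that slide. In the ubp8 strain, extrapolated to that slide, the block gave 0 by limma, where 3.75% and 1.55% of all genes were called. RPC34 was thus not called, and 6 subunit genes were higher and 1 lower at an unadjusted p under 0.05.

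In the double mutant, 10 subunit genes rose and 0 fell, where 9.78% and 10.2% of the 6246 genes tested did. At an unadjusted p under 0.05, 16 were higher and 2 lower. Without either array of the double mutant 0 were called, and without any 1 of the other 4 arrays 5 were. Both this comparison and that of the K123R strain have wild type as the reference, and the arrays may share its RNA, so the values of each are given side by side. RPA43, the polymerase I stalk subunit that binds the initiation factor Rrn3, was called in the double mutant, with 0.27 and 0.18 (log2 0.23 ± 0.06, limma adjusted p = 0.047). RET1 was not, with 0.28 and 0.65 (log2 0.47 ± 0.13, limma adjusted p = 0.0587). The median log2 ratio was 0.38 for polymerase I genes, 0.42 for those of polymerases I and III, 0.26 for polymerase III, 0.17 for the common genes and -0.03 for polymerase II, beside 0.001 for all genes. Of the 29 genes with both values, 22 were higher and 3 lower on both arrays, where 32.9% and 34.8% of all genes were.

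The other 9 genes called in the double mutant had a positive value on every array that measured them. RPA135 had 0.50 and 0.49 (log2 0.49 ± 0.05, limma adjusted p = 0.00536), and RPA12 had 0.48 and 0.51 (log2 0.50 ± 0.05, limma adjusted p = 0.00561). In both polymerase I genes the 2 arrays gave nearly equal values. RPC40 had 0.32 and 0.50 (log2 0.41 ± 0.07, limma adjusted p = 0.0153). RPC19 had 0.43 on array 1 and no value on array 2, so that its call rests on 1 array (limma adjusted p = 0.0298). In polymerase III, RPC82 had 0.28 and 0.49 (limma adjusted p = 0.0243) and RPC53 had 0.31 and 0.21 (limma adjusted p = 0.0307). In polymerase II, RPO21 had 0.16 and 0.27 (limma adjusted p = 0.0462) and RPB2 had 0.27 and 0.35 (limma adjusted p = 0.0203). The common subunit RPB8 had 0.20 and 0.21 (limma adjusted p = 0.0383). With the slide as a block, fitted at the slide of array 1, RPO21 (limma adjusted p = 0.121) and RPB8 (limma adjusted p = 0.0632) did not pass. With the array number as a random block RPA43, RPO21 and RPB8 did not. At the other end, RPB4 had -0.21 and -0.39 (limma adjusted p = 0.0712) and RPC17 had -0.50 and -0.07 (limma adjusted p = 0.134), so neither passed.

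The double mutant was set against each single mutant through wild type, in contrasts of the same fit. Against the K123R strain, 0 subunit genes differed by limma, 0 also at an unadjusted p under 0.05, and 0 with the array number as a block. The differences ran from -0.08 in RPO21 to 0.19 in RPB7, with a median standard error of 0.10, and 0% of all genes were called. This contrast did not call the deleted UBP8 either, at a log2 difference of -2.16, or LEU2, at -3.75 (limma adjusted p = 0.092 for each), so the count of 0 does not show that the strains were alike. With the block, 0.144% of all genes were called as higher and 0.0801% as lower. Against the ubp8 strain, RPA135 was higher in the double mutant (log2 difference 0.41 ± 0.07, limma adjusted p = 0.0428), 1 gene of 31, where 2.87% of genes tested were higher and 4% lower. Without any 1 of the 6 arrays 0 differed there, and with the block 22 did, 18 higher and 4 lower in the double mutant, where 27.9% and 26.8% of all genes were.

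In the ubp8 strain, 1 subunit gene rose, RPC34, and 0 fell, where 1.86% and 0.977% of genes tested did. RPC34, which recruits polymerase III through the factor TFIIIB, had 0.27 and 0.32 (log2 0.29 ± 0.05, limma adjusted p = 0.0479). It was called in neither of the other mutants against wild type, at 0.01 and 0.03 in the K123R strain and 0.09 on both arrays in the double mutant. The call in the ubp8 strain was lost when any 1 of the 6 arrays was left out. RPC25 had the highest values in the ubp8 strain, 0.35 and 0.44, but did not pass (log2 0.40 ± 0.07, limma adjusted p = 0.0621). At an unadjusted p under 0.05, 5 subunit genes were higher and 0 lower. On both arrays, 15 of the 31 were higher and 4 lower, where 28.4% and 29.8% of all genes were.

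The 10 genes that rose in the K123R strain had fitted log2 ratios between -0.09 and 0.21 in the ubp8 strain. RPA135 had 0.05 and 0.12 there, and it was higher in the K123R strain than in the ubp8 strain (log2 difference 0.40 ± 0.07, limma adjusted p = 0.0364). RPO21 had -0.10 and -0.09 in the ubp8 strain, and it was also higher in the K123R strain (log2 difference 0.39 ± 0.08, limma adjusted p = 0.0446). These were the 2 genes of 31 that passed in this contrast, where 3.81% of genes tested were higher and 4.66% lower in the K123R strain. RPB2, with -0.04 and 0.00 in the ubp8 strain, gave a difference of 0.37 ± 0.08 that did not pass (limma adjusted p = 0.0531). Both calls were lost without any 1 of the 6 arrays. With the block, 21 subunit genes differed between the K123R and ubp8 strains, 17 higher and 4 lower in the K123R strain, where 29.1% and 27.5% of all genes were. The median log2 ratios in the ubp8 strain were 0.12 for polymerase I genes, 0.10 for polymerase III and -0.04 for polymerase II, beside -0.01 for all genes. Without ubp8 array 2 the polymerase I median was 0.05. With the slide as a block the medians were 0.24 for polymerase I, 0.05 for polymerase III and 0.11 for polymerase II. These were extrapolated to a slide without the ubp8 strain and are not means of its 2 arrays. For RPA190 that fit gave -0.20, outside its array values of -0.10 and 0.15.

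An interaction contrast, the double mutant minus both single mutants, gave 0 calls by limma among the 31 genes, where 0% of the 6244 genes tested were called in either direction. At an unadjusted p under 0.05, 2 subunit genes were lower. RPC25 had the largest departure, a log2 value of -0.42 ± 0.13 (limma adjusted p = 0.517). With the array number as a block, 4 genes were called, all lower than the sum, namely RPC25, RPA43, RET1 and RPC34, where 8.62% of all genes were higher and 12.2% lower. By limma 0 were called with the array number as a random block and 0 with the slide as a block, and 3 and 1 were lower there at an unadjusted p under 0.05. The slide block sets each mutant at the slide of K123R array 1 and double mutant array 1, so its interaction is not one of array means. In the ubp8 strain itself, 3 of these had values of 0.19 or more on both arrays, and RET1 had 0.01 and 0.34.

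**Figure D2:**
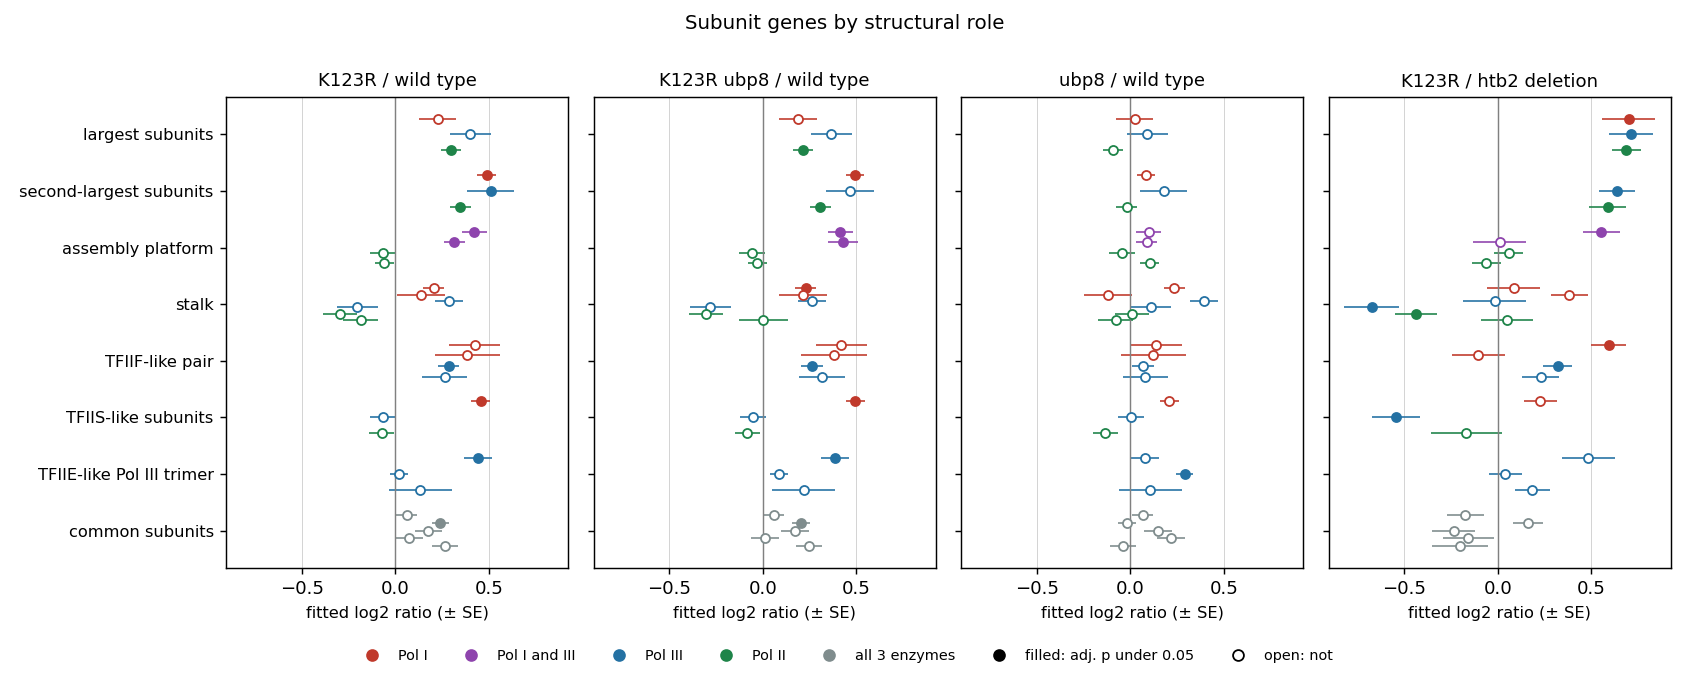
Fitted log2 ratio with its standard error (horizontal axis) of each subunit gene, grouped by structural role (rows) and coloured by enzyme, in the 4 comparisons (panels). Filled points have a limma adjusted p under 0.05. In the K123R strain against wild type and in the double mutant, the points of the largest and second-largest subunits lie between 0.19 and 0.51, and in the K123R strain against the htb2 deletion strain those with a value lie between 0.59 and 0.71.

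Slides carried arrays of more than 1 mutant, so the enzyme medians were also compared within a slide. On the slide shared by K123R array 2 and ubp8 array 1, the median log2 ratio of polymerase I genes was 0.34 and 0.05, and that of polymerase III genes 0.20 and 0.08. On the slide shared by double mutant array 2 and ubp8 array 2, polymerase I genes had 0.30 and 0.15, and polymerase III genes 0.17 and 0.15. The order of the mutants was thus kept on both slides for polymerase I, with a small gap for polymerase III on the second. On the first slide K123R was in Cy3 and ubp8 in Cy5, so dye and mutant cannot be told apart. On the second slide both mutants were in Cy3. The order was turned on the first slide for the common genes, at 0.10 and 0.13, and for polymerase II, at -0.06 and 0.01. On the second slide these had 0.21 and 0.01, and -0.01 and -0.10. On the slide of K123R array 1 and double mutant array 1, polymerase I genes had 0.33 and 0.39.

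Against the htb2 deletion strain, 8 of the 30 subunit genes tested rose in the K123R strain and 3 fell, where 12.5% and 13.5% of the 6109 genes tested did. Without array 1, 2 or 3, the subunit genes called numbered 3, 12 and 6, and all genes called numbered 442, 1878 and 834. Those that rose were RPA190 and RPA49 of polymerase I, RPC40, RPO31, RET1 and RPC53 of polymerase III or shared with it, and RPO21 and RPB2 of polymerase II. Those that fell were RPC17 and RPC11 of polymerase III and RPB4 of polymerase II. The median log2 ratio was 0.30 for 6 polymerase I genes, 0.28 for the 2 genes of polymerases I and III, 0.21 for polymerase III, 0.05 for polymerase II and -0.17 for the 5 common genes, beside -0.01 for all genes. Of the 21 genes with values on all 3 arrays, 9 were higher and 4 lower on each, where 32.3% and 32.7% of all such genes were.

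The largest and second-largest subunits were again on the high side, and 5 of the 5 that were tested rose. RPO31 had 0.61, 0.59 and 1.06 on arrays 1, 2 and 3 (log2 0.71 ± 0.12, limma adjusted p = 0.0235). RET1 had 0.57, 0.57 and 0.85 (log2 0.64 ± 0.10, limma adjusted p = 0.0219). RPO21 had 0.60, 0.74 and 0.66 (log2 0.69 ± 0.08, limma adjusted p = 0.0171). These 3 genes were high on each array, and both polymerase III genes were highest on array 3. RPB2 had 0.49 and 0.68 on arrays 1 and 2 (log2 0.59 ± 0.10, limma adjusted p = 0.0324). RPA190 had a value on array 3 only, 0.70 (limma adjusted p = 0.0409). With outlier spots kept, RPA190 had 0.24, 0.21 and 0.71 and did not pass (log2 0.34 ± 0.12, limma adjusted p = 0.0806), so its call rests on 1 array. RPA135, untested without its outlier spots, had 0.53, 0.53 and 0.99 with them (log2 0.64 ± 0.12, limma adjusted p = 0.0192). The role grouping was made after values had been seen, and no test was run on it.

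The 3 further genes that rose were RPA49, RPC40 and RPC53, each with positive values on every array it had. RPA49, the polymerase I TFIIF-like subunit, had 0.61, 0.44 and 0.88 (log2 0.59 ± 0.09, limma adjusted p = 0.0227). RPC40 had 0.47 and 0.64 on arrays 2 and 3 (log2 0.55 ± 0.10, limma adjusted p = 0.0348), and RPC53 had 0.33, 0.26 and 0.43 (log2 0.32 ± 0.08, limma adjusted p = 0.0451). RPC82 had 0.48 on array 1 alone and did not pass, and with outlier spots kept it had 0.48, 0.58 and 0.79 (log2 0.61 ± 0.10, limma adjusted p = 0.0158). RPA12 and RPB8, which had risen against wild type, had 0.03, 0.31 and 0.25, and 0.07, 0.18 and 0.22, and neither passed. RPC19 had 0.01 on its 1 array. RPA43 had 0.09 on its 1 array, and RPC34 had -0.03, 0.00 and 0.20.

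The 3 genes that fell had values that differed widely between arrays. RPC17, of the polymerase III stalk, had -0.73, -0.31 and -1.35 (log2 -0.67 ± 0.15, limma adjusted p = 0.0351). RPC11, which cleaves the transcript in polymerase III, had -0.60, -0.23 and -1.11 (log2 -0.54 ± 0.13, limma adjusted p = 0.0404). RPB4 had -0.68, 0.02 and -1.10 (log2 -0.44 ± 0.11, limma adjusted p = 0.0495). In all 3 genes, array 2, the only one with the K123R strain in Cy5, gave the value nearest 0 and array 3 the lowest. Without array 3, RPC17 passed (limma adjusted p = 0.0457), while RPC11 (limma adjusted p = 0.0714) and RPB4 (limma adjusted p = 0.219) did not. Without array 1 no subunit gene was called as lower, and without array 2 there were 5.

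Array 3 was also the lowest, with a negative value, in 6 subunit genes that did not pass. RPO26 had -0.32, 0.28 and -0.88, RPB5 had -0.28, 0.09 and -0.59, and RPC10 had -0.08, 0.00 and -0.73. RPB9 had 0.09, 0.01 and -0.78, RPC25 had 0.21, 0.14 and -0.55, and RPB10 had -0.03, -0.22 and -0.47. Of these 6 genes, RPO26, RPB5, RPC10 and RPB10 are common to all 3 enzymes, RPB9 belongs to polymerase II and RPC25 to polymerase III. The median of the 5 common genes was -0.08, 0.09 and -0.59 on arrays 1, 2 and 3. Dye, array 3 and the K123R substitution cannot be fully told apart in these genes with 3 arrays.

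**Figure D3:**
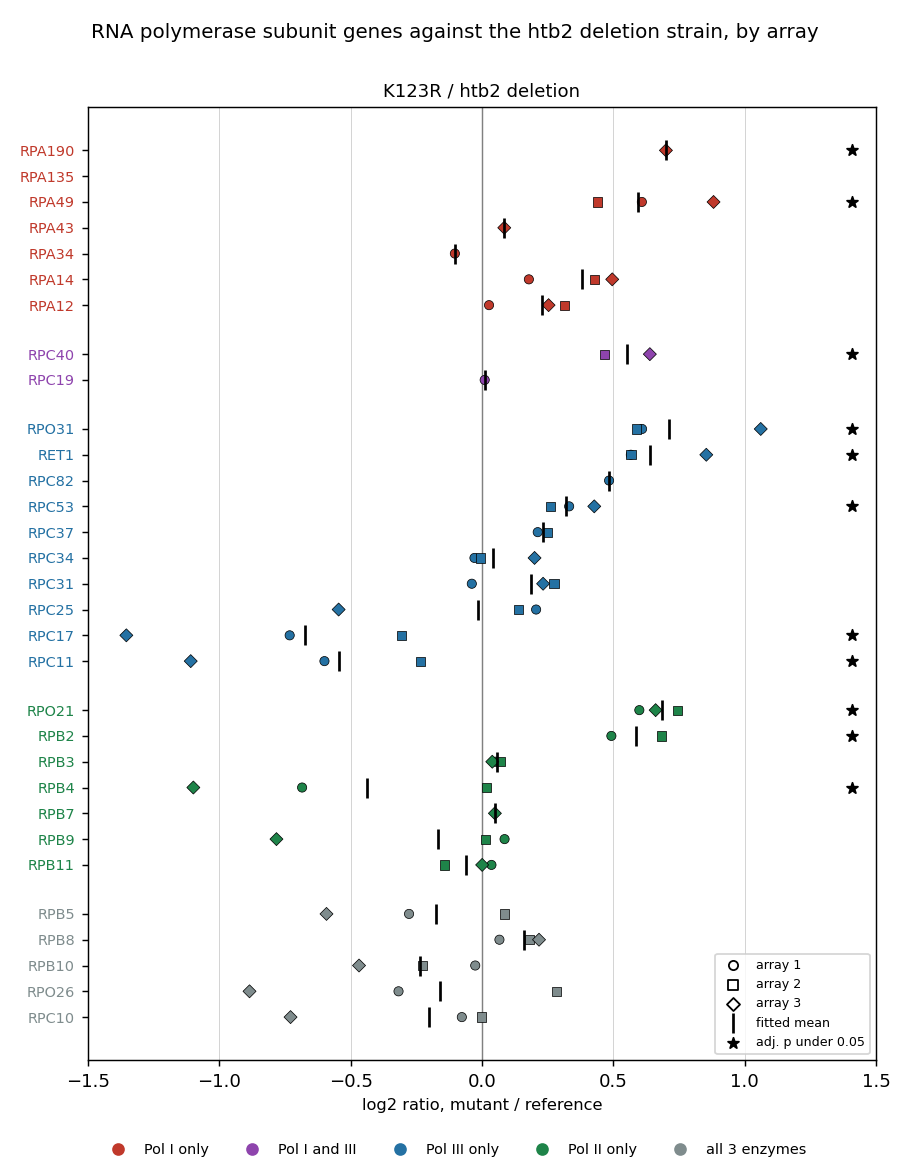
Log2 ratio of the K123R strain over the htb2 deletion strain (horizontal axis) for each subunit gene (rows, coloured by enzyme). Circles, squares and diamonds are arrays 1, 2 and 3, vertical bars the fitted mean and stars genes with a limma adjusted p under 0.05, and RPA135 has no point. Array 3 reaches from -1.35 in RPC17 to 1.06 in RPO31, while array 2 runs from -0.31 to 0.74.

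By the labels, the K123R strain was on all these arrays, against a different reference in each comparison. Its LEU2 ratio was high only against wild type, and whether the strain or the reference accounts for that was not tested. RPC40, RET1, RPC53, RPO21 and RPB2 rose against both, which is 50% of the genes that rose against wild type and 62.5% of those that rose against the htb2 deletion strain. Against wild type, the calls of RET1, RPC53 and RPO21 were lost without either ubp8 array. Of the 30 genes with a value in both, 17 were higher and 5 lower against both references, and 8 had opposite signs. Neither the overlap nor the signs were counted over all genes, so no background stands beside these counts. RPA135, which rose against wild type, was not tested against the htb2 deletion strain and could not be among the shared genes. RPO21, RPB2 and RET1 had fitted log2 ratios of 0.30, 0.35 and 0.51 against wild type and 0.69, 0.59 and 0.64 against the htb2 deletion strain. The differences between the 2 comparisons were not tested, since the array designs and scanner software versions differed.

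RPA190 and RPA43 were the only pair of the 31 genes that are neighbours in the RefSeq order of protein-coding genes of assembly R64. They moved unequally by array in the K123R strain, with 0.12 and 0.34 for RPA190 and 0.26 and 0.16 for RPA43.

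Genes that act with the polymerases were described from lists of their factors. Over all genes tested, 10.9% rose and 10.1% fell in the K123R strain against wild type, and 9.78% and 10.2% in the double mutant. The shares were 1.86% and 0.977% in the ubp8 strain, and 12.5% and 13.5% against the htb2 deletion strain. Of 10 polymerase I initiation factor genes, 3 rose and 1 fell in the K123R strain against wild type. RRN11 (log2 0.49 ± 0.06, limma adjusted p = 0.00762) and RRN6 (log2 0.33 ± 0.05, limma adjusted p = 0.012) belong to the core factor at the ribosomal DNA promoter, and RRN3 (log2 0.39 ± 0.09, limma adjusted p = 0.037) makes polymerase I competent to initiate. RRN5, of the upstream activating factor, fell by 0.29 ± 0.06 (limma adjusted p = 0.031). In the double mutant the counts were also 3 and 1, in the ubp8 strain 0 and 0, and against the htb2 deletion strain 2 rose and 1 fell. RRN11 had 0.44, 0.46 and 0.52 on the latter 3 arrays.

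No polymerase III factor gene passed the test as higher in any of the 4 comparisons. Of 9 such genes, 0 rose and 3 fell by limma in the K123R strain against wild type, and likewise in the double mutant. Of all genes, 10.1% and 10.2% fell in these 2 comparisons. At an unadjusted p under 0.05 there were 1 higher and 5 lower in each. In the ubp8 strain and against the htb2 deletion strain 0 were called, and 1 was higher and 0 lower, and 1 higher and 2 lower, at an unadjusted p under 0.05. MAF1, the repressor of polymerase III, had -0.39 and -0.27 in the K123R strain (log2 -0.33 ± 0.05, limma adjusted p = 0.0146), and TFC7, of the factor TFIIIC, had -0.26 and -0.25 (log2 -0.25 ± 0.05, limma adjusted p = 0.0199). TFC8, also of TFIIIC, had -0.39 and -0.25 (log2 -0.32 ± 0.08, limma adjusted p = 0.0407). The median of the list was -0.14 in the K123R strain, on the other side of 0 from the polymerase III subunit genes.

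Of the 18 genes for general factors of polymerase II, 0 rose and 2 fell by limma in the K123R strain against wild type, and 1 was higher and 2 lower at an unadjusted p under 0.05. Over all genes 10.9% rose and 10.1% fell there, so 2 of 18 lay near the share of all genes that fell. TOA2, a subunit of TFIIA, had -0.30 and -0.32 (log2 -0.31 ± 0.06, limma adjusted p = 0.0199), and TFB4, a subunit of TFIIH, had -0.46 and -0.33 (log2 -0.40 ± 0.07, limma adjusted p = 0.0389). TFG1 and SSL2 came next and did not pass. The median of the list was -0.05, close to that of the polymerase II subunit genes.

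Among 9 genes for assembly and nuclear import of the polymerases, 3 rose and 1 fell in the K123R strain, where 10.9% and 10.1% of all genes did. GPN2, a GTPase needed for assembly, had 0.58 and 0.45 (log2 0.52 ± 0.06, limma adjusted p = 0.00743). RTP1, which acts in the import of polymerase II, had 0.59 and 0.85 (log2 0.72 ± 0.15, limma adjusted p = 0.0261), and NPA3, another GTPase, had 0.22 and 0.17 (log2 0.20 ± 0.05, limma adjusted p = 0.0414). IWR1, an import adaptor of polymerase II, fell by 0.24 ± 0.05 (limma adjusted p = 0.0328). The counts were 3 and 1 in the double mutant, 0 and 0 in the ubp8 strain, and 3 and 0 against the htb2 deletion strain.

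Of 30 genes that process and assemble ribosomes, most of whose RNA is made by polymerase I, 20 rose and 0 fell in the K123R strain against wild type. Over all genes 10.9% rose and 10.1% fell there. The median log2 ratio of the list was 0.38. DBP10, an RNA helicase of the large subunit pathway, had 0.61 and 0.63 (log2 0.62 ± 0.05, limma adjusted p = 0.00351), and SPB1, a ribosomal RNA methyltransferase, had 0.55 and 0.58 (log2 0.57 ± 0.05, limma adjusted p = 0.00351). RRP5 and ENP2 had 0.47 ± 0.05 and 0.50 ± 0.05. The counts were 20 and 0 in the double mutant, 2 and 0 in the ubp8 strain and 10 and 0 against the htb2 deletion strain. The median in the ubp8 strain was 0.24, above that of the polymerase I subunit genes there.

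**Figure D4:**
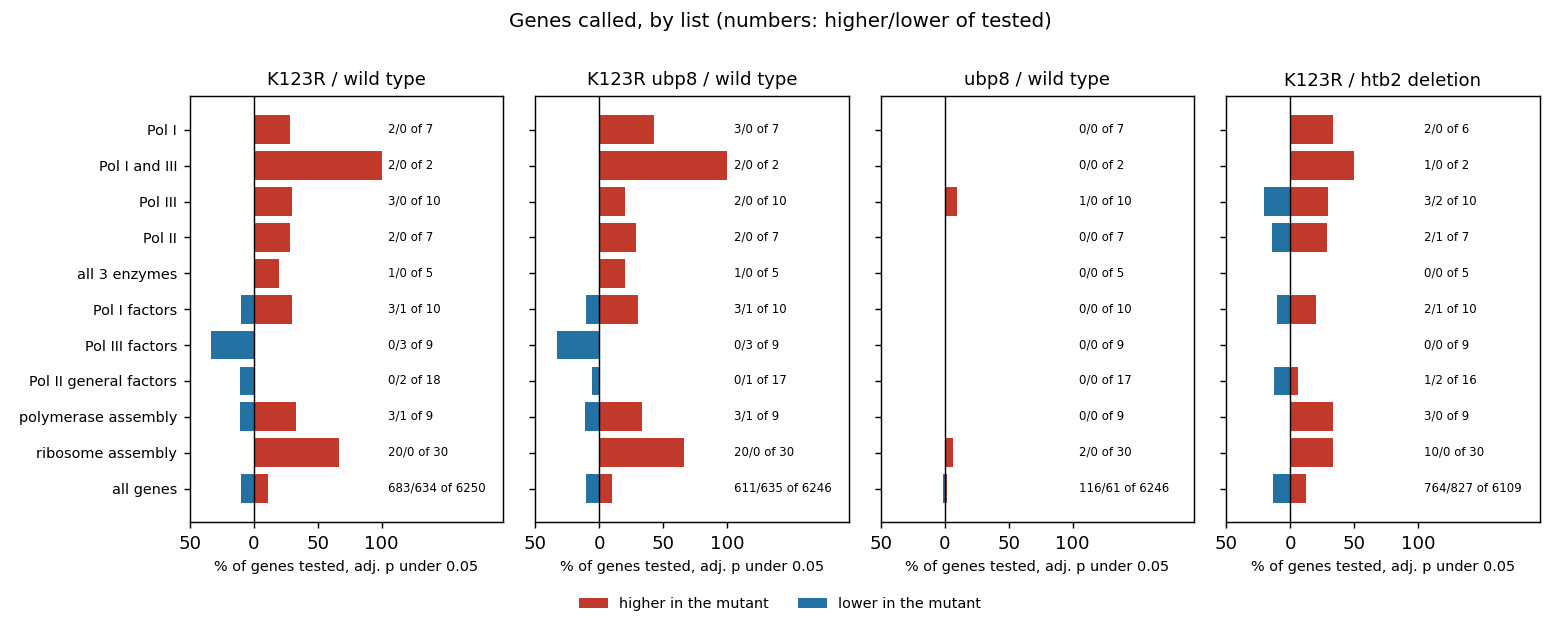
Share of the genes tested (horizontal axis, percent) with a limma adjusted p under 0.05 in each list (rows) and comparison (panels), higher in the mutant to the right of 0 and lower to the left. The numbers give genes higher and lower of those tested, and the last row holds all genes. Ribosome assembly genes reach 20 of 30 in the K123R strain and the double mutant, and polymerase III factors have bars to the left only.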

How the data were processed

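Per the file headers, each spot's intensity came from Agilent Feature Extraction, version 7.5.1 (release A) for the 6 arrays with a wild-type reference and version 8.5.1.1 for the 3 others. The values deposited for the series are log10 ratios of mutant over reference after the software's dye normalisation, and they served as an alternative. Here, ratios were computed from mean signals and local backgrounds of the scanner files, using limma 3.58.1 in R 4.3.3: normexp with an offset of 50, loess within each array, control and outlier spots left out, spots of a probe averaged, and every ratio turned to mutant over reference.

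A gene was tested if well above background in either colour on at least 3 of 6 or 2 of 3 arrays. The first 6 arrays shared a fit with 1 mean for each mutant (3 residual degrees of freedom). The other 3 had their own fit with a dye term for each gene (1 residual degree of freedom), or by the mean where missing values left no room for the term, as for 410 genes. The number of arrays limits the precision. Adjusted p-values are Benjamini-Hochberg values over all genes tested, with a threshold of 0.05.

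Deviations from the mutant means correlated across 6131 genes at 0.866 to 0.886 between same-numbered arrays of different mutants. The array number, which is the dye orientation, therefore pairs the arrays, and p-values without it as a block are approximate. Alternatives were other background and normalisation methods, filters, kept outlier spots, blocks by array number or slide, and leaving out each array. The pipeline was tested on simulated data. For the arrays against wild type the simulated noise was independent between arrays, so that test does not cover the pairing by array number. All 31 subunit genes are accounted for. Array values are given for those called and for the highest and lowest of each enzyme, and each list of other genes is illustrated by up to 4 with the smallest adjusted p in the K123R strain against wild type. The subunit genes and lists were chosen with earlier results of these data known. Promoter and protein sequences were not used here, so the planned motif search was not run.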

Additional observations from a re-analysis of the deposited data

How the results depend on the processing

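No call of a subunit gene changed its direction under any alternative. With the array number as a block, which pairs the arrays, the subunit genes called numbered 24 in the K123R strain, 24 in the double mutant and 15 in the ubp8 strain. All genes called numbered 4137, 4089 and 3091. The blocked contrasts called 21 subunit genes for K123R minus ubp8, 22 for double minus ubp8 and 4 for the interaction. Each call of the unblocked fit was kept, and this block ended no call. As a random block, the array number ended the calls of RPA43, RPO21 and RPB8 in the double mutant and gave 0 in the ubp8 strain, 21 for K123R minus ubp8 and 22 for double minus ubp8. With the slide as a block, mutant values are those at the slide of K123R array 1 and double mutant array 1, not means of 2 arrays. The ubp8 strain was not on that slide and was extrapolated to it. Under this block, 18 subunit genes were called in the K123R strain and 0 in the ubp8 strain. It called 10 for K123R minus ubp8 and 4 for double minus ubp8, differences that do not depend on the slide chosen. RPO21 and RPB8 were not called in the double mutant. All genes called were then 331 in the ubp8 strain and 2106 in the double mutant. Median log2 ratios under the slide block were 0.3244 (polymerase I) and -0.0382 (polymerase II) in the K123R strain, 0.2433 (polymerase I), 0.0454 (polymerase III) and 0.1077 (polymerase II) in the ubp8 strain, and 0.0032 (polymerase II) in the double mutant. The polymerase II median of the double mutant was -0.0594 with outlier spots kept and with either block by array number. Against the htb2 deletion strain, kept outlier spots gave medians of 0.2301 (polymerase III) and -0.0226 (polymerase II). Median centring gave polymerase II medians of -0.0625, -0.0455 and -0.0204 in the K123R strain, the double mutant and the K123R strain against the htb2 deletion strain, a polymerase I median of 0.4018 in the K123R strain and 0.0341 for the shared subunits in the ubp8 strain. It left 0 subunit genes called in the ubp8 strain and in both contrasts with it. Median centring also ended the calls of RPC19, RPC53 and RPB8 in the K123R strain and in the double mutant. In the double mutant it ended those of RPA43 and RPO21 as well. The scanner software's processed signals and the deposited values gave 0 subunit genes in the ubp8 strain, 91 and 85 genes of all there, and 1 for K123R minus ubp8. Both settings ended the call of RET1 in the K123R strain and those of RPA43 and RPO21 in the double mutant. The 2 ubp8 arrays alone also gave 0. With the 2 arrays of the K123R strain or of the double mutant alone, RPC53, RPO21 and RPB8 lost their calls, as did RPA43 in the double mutant. The cause of these shifts was not tested.

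Leaving out either array of the K123R strain or of the double mutant left 0 subunit genes called in that mutant, which then had 1 array assumed to vary like the rest. Leaving out either ubp8 array left 5 called in the K123R strain and 5 in the double mutant, and leaving out either K123R array left 5 in the double mutant. Over the 6 arrays against wild type left out in turn, subunit genes called ran from 0 to 9 in the K123R strain, 0 to 5 in the double mutant and stood at 0 in the ubp8 strain and in the 4 contrasts. All genes called ran from 34 to 886, 3 to 830 and 0 to 8. Against the htb2 deletion strain, leaving out each of 3 arrays gave 3 to 12 subunit genes and 442 to 1878 genes of all. Median log2 ratios in the K123R strain ran from 0.3293 to 0.3862 for polymerase I, 0.196 to 0.2968 for polymerase III, -0.0643 to -0.0586 for polymerase II and 0.1769 to 0.2675 for shared subunits. In the double mutant they ran from 0.3048 to 0.3885, 0.1739 to 0.2627, -0.0292 to 0.0032 and 0.2005 to 0.2246, in the same order. The polymerase I median ran from 0.0482 to 0.1504 in the ubp8 strain, and the polymerase III median from 0.1548 to 0.2493 against the htb2 deletion strain.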
